A study of Homo sapiens with 8 samples.

Results

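Regions that were accessible at a stage of cardiac differentiation, not accessible at a later stage and accessible again after that were collected from ATAC-seq peak lists. A stage counted as open where the lists of both of its replicates held a peak over the same bases, and as closed otherwise. The open stretches of the 4 stages were merged, and a region was open at a stage if it overlapped that stage's stretches by at least 1 bp. A closed and reopened region was open at exactly ESC+CP, ESC+CM, MES+CM, ESC+MES+CM or ESC+CP+CM. There were 5107 such regions of 138383 on chromosomes 1 to 22 and X, which is 3.69% of all regions. They were selected on the measured presence of peaks, so that their patterns, and the strengths of the peaks behind them, are described here and not tested. In 4544 of the 5107 (89.0%), a stage counted as closed had a peak in at least 1 of its lists, so that "closed" means here that a peak was not found in both replicates.

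RUES2 cells, a human embryonic stem cell line, were the only line analysed here. At each of 4 time points 2 replicate libraries were made. Day 0 stands for undifferentiated cells (hESC, written ESC in the names of the patterns), day 2 for mesoderm (MES), day 5 for cardiac progenitors (CP) and day 14 for cardiomyocytes (CM). The day 0 cells had been in medium with CHIR-99021, a GSK3 inhibitor that activates Wnt signalling, since the previous day. The later stages then received more CHIR-99021 and, between MES and CP, the Wnt inhibitor XAV-939. The labels do not say whether replicates were separate differentiations. The lists held 55777 to 156179 peaks on these chromosomes. In hESC, MES and CP the replicate 2 list was the longer, with 156117 against 103118, 156179 against 108340 and 120133 against 99789 peaks. In CM the replicate 1 list was the longer, with 92731 against 55777.

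In ATAC-seq the Tn5 transposase inserts adapters into DNA that is not wrapped in nucleosomes, and pileups of insertions mark promoters, enhancers and insulators. Promoters of widely used genes stay open through differentiation, while distal enhancers open and close as the transcription factors that occupy them come and go. OCT4 and SOX2 act at enhancers of pluripotent cells, GATA factors in mesoderm and heart, NKX2-5, MEF2 and TEAD factors in heart muscle, and the FOS-JUN dimers of AP-1 in many cell types, while CTCF occupies insulators and loop anchors.

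The sequence of the strongest example of each pattern is shown, since the motif shares given later count letters of this kind. Strength was ranked by the q-value of the weakest peak when open. Each sequence is the 200 bp around the midpoint of a region with no peak in either list when closed, on the plus strand of GRCh38. Regions are named by the nearest transcription start site (TSS) of a protein-coding transcript. Where the strongest region of a pattern was left out, the next is shown. Capitals mark matches on either strand to the letters searched for GATA factors (AGATAA or AGATAG, with T allowed in place of the leading A), NKX2-5 (TNAAGTG), TEAD factors (CATTCC), AP-1 (TGACTCA), SOX factors (CATTGT), the OCT4 octamer, MEF2 and CTCF.
AKAP11 region, ESC+CP, chr13:42258865-42259064: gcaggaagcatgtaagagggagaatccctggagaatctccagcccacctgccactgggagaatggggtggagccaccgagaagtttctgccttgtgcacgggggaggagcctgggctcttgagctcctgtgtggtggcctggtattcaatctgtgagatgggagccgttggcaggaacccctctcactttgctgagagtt
NBAS region, ESC+CM, chr2:15449637-15449836: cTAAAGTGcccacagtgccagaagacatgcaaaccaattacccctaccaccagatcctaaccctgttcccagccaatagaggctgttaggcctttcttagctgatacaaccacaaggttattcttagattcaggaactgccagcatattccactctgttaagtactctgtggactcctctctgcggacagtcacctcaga
GFRAL region, MES+CM, chr6:55260299-55260498: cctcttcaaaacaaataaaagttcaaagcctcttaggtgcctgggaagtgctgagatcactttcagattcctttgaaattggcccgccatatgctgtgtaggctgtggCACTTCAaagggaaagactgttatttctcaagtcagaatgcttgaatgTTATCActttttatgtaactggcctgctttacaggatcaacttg
ANXA3 region, ESC+MES+CM, chr4:78552500-78552699: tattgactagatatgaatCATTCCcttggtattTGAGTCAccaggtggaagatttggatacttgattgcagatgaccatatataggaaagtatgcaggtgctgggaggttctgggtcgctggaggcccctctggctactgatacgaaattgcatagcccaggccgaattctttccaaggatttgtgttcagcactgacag
SEC61B region, ESC+CP+CM, chr9:99411765-99411964: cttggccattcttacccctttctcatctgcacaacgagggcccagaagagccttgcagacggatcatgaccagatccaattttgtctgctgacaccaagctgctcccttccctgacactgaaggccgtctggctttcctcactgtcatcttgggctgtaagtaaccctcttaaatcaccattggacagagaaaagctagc
The AKAP11 and SEC61B windows held none of these letters. The NBAS window held an NKX match, the GFRAL window an NKX and a GATA match, and the ANXA3 window a TEAD match followed closely by an AP-1 match. A match describes the letters and is not a bound site.

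With all libraries, ESC+CP was the most frequent of the 5 patterns, with 2550 regions or 49.9% of the closed and reopened regions. ESC+MES+CM held 889 regions, MES+CM 658, ESC+CP+CM 520 and ESC+CM 490. The patterns without a gap were more frequent. Of the 27288 regions open at 2 stages, 13.6% had a gap (95% Wilson interval 13.2 to 14.0), and of the 21077 open at 3 stages 6.69% (6.36 to 7.03). The intervals here and in the following cover counting error only. The 43258 regions open at 2 or 3 consecutive stages (consecutive regions) serve as the comparison in what follows. The count depended on single libraries. It was 11476 without CM replicate 2, 9087 without hESC replicate 1 and 7811 without CP replicate 1. The ESC+CP count was 633 without MES replicate 1, where the long MES replicate 2 list alone decided which regions were closed, and 6230 without CP replicate 1. The order of the patterns changed as well. Without MES replicate 1, MES+CM (1606) and ESC+MES+CM (1185) were more frequent than ESC+CP. Without CM replicate 2, ESC+MES+CM had 3309 regions, MES+CM 2868, ESC+CM 2236, ESC+CP 1728 and ESC+CP+CM 1335.

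At the stages counted as closed, most regions had a peak in a single list. No list held a peak at any closed stage in 563 closed and reopened regions, 11.0% (10.2 to 11.9). Among consecutive regions the same was true at their stages without a shared peak for 38.2% (37.7 to 38.6). The share was 9.84% in ESC+CP, 9.80% in ESC+CM, 14.3% in MES+CM, 11.6% in ESC+MES+CM and 12.9% in ESC+CP+CM. In ESC+CP it also required no peak at CM, and in MES+CM none at ESC, which are stages outside the gap. At the stage in between alone, 14.4% of ESC+CP regions had no peak at MES and 25.7% of MES+CM regions none at CP. In 66 regions (1.29%) both lists of a closed stage held a peak, but on bases that did not overlap. Of the 563 regions, 421 had no peak of those lists within 1 kb either.

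The peaks at closed stages lay mostly in the longer of the 2 lists. In ESC+CP regions, 74.1% had a peak at MES in replicate 2 alone and 10.4% in replicate 1 alone. At CM, where replicate 1 had the longer list, the order turned, with 32.1% in replicate 1 alone and 5.92% in replicate 2 alone, while 61.8% had no peak. ESC+CP+CM regions had a peak at MES in replicate 2 alone in 77.3% and in replicate 1 alone in 8.08%. ESC+MES+CM regions had a peak at CP in replicate 2 alone in 64.0% and in replicate 1 alone in 23.2%. In ESC+CM regions the shares for replicate 2 alone were 61.6% at MES and 56.3% at CP, and in MES+CM regions 44.4% at ESC and 59.1% at CP. The longer list held more of the peaks in each of the 8 combinations of pattern and closed stage. Cutting all lists to the 55777 peaks of highest −log10 q gave 3886 closed and reopened regions, of which 16.3% had no peak in these shortened lists when closed. The part of sequencing depth in these differences was not tested, since the lists hold no read totals.

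**Figure D1:**
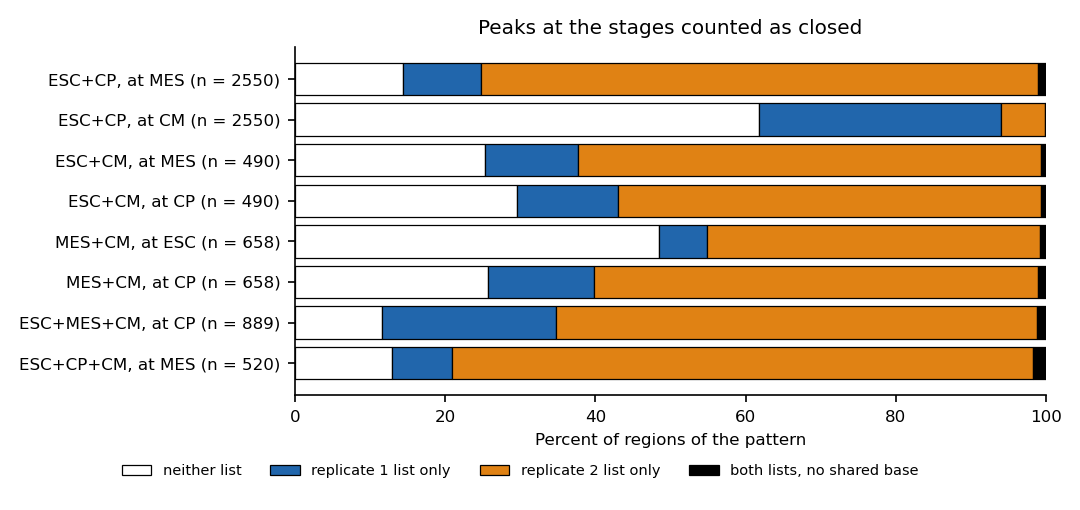
For each pattern and closed stage, the percent of regions (horizontal axis) with a peak in neither list (white), in the replicate 1 list alone (blue), in the replicate 2 list alone (orange), or in both lists without a shared base (black). The orange part is the largest at MES and CP, up to 77.3%, and the blue part exceeds it at CM alone.

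The single-list peaks were not all near the threshold of the lists, a q-value of 0.01. The 1917 peaks of MES replicate 2 over ESC+CP regions had a median −log10 q of 11.4, against 12.1 for the whole list. The 580 peaks of CP replicate 2 over ESC+MES+CM regions reached a median of 15.1, above that of their list (12.2). Other peaks at closed stages were weaker than their lists. In MES replicate 1 the 292 peaks over ESC+CP regions had a median of 6.98 against 11.8 for the list, and at CM the peaks over these regions had 6.87 against 8.42 in replicate 1 and 6.29 against 9.66 in replicate 2. The 217 peaks of the shorter CP list, replicate 1, over ESC+MES+CM regions had 8.41, near the 8.76 of that list.

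Where closed and reopened regions were open, their peaks were weaker than those of consecutive regions in all 8 libraries. Fold is the pileup at the summit over the local background. The median fold in hESC was 4.66 and 5.07 in replicates 1 and 2, against 5.39 and 5.89 for consecutive regions. In MES it was 4.79 and 5.36 against 5.22 and 6.06. The CP medians were 4.24 and 5.11 against 4.70 and 5.81, those of CM 4.31 and 4.82 against 4.89 and 5.26. The quartiles of the groups overlapped in every library. Among regions open at 3 stages, CP replicate 2 was an exception, with a median fold of 6.37 in closed and reopened and 5.99 in consecutive regions, and in the other 7 libraries the order was as in the pooled groups. The weakest peak of a region, over the libraries in which it was open, had a median −log10 q of 6.01 in closed and reopened regions, 7.73 in consecutive regions and 14.3 in regions open at all 4 stages. Just inside the rule, the lowest such value was 2.57, 38 regions (0.744%) lay under 3, and the shortest stretch shared by replicates was 1 bp. Just outside it, 7270 other regions of the 138383 would have had a gap had a peak in either list counted, with a median −log10 q of 6.85 for the peak in question and a lowest value of 2.58. Of the 5107 regions, 928 kept a gap under that wider rule.

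The 563 regions with no peak when closed were close to the limit of the lists as well. From the lowest background and the lowest −log10 p of each list, a stretch at the genome-wide background needed a fold of 2.63 to 3.11 to be listed. The weakest peak of these 563 regions when open had a median fold of 3.72. Its ratio to the highest fold needed at the closed stages had a median of 1.23 and a maximum of 2.36. In 500 regions the ratio was over 1, in 66 at least 1.5, and in 2 at least 2. The fold needed was computed at the lowest background of a list, and where the local background was higher, peaks of lower fold were listed. The lowest −log10 q was under 5 in 43.5% of them, at least 10 in 23 and at least 20 in 0 regions.

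The regions were built from peaks at nearly the same position. The summits of the stages lay a median of 35 bp apart in closed and reopened regions and 29 bp in consecutive regions, where the summits of replicates of a stage were 31 and 25 bp apart. The spread was largest in ESC+CP+CM (53 bp) and smallest in ESC+CP (28.5 bp). Regions were a median of 302 bp wide against 354 bp.

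To see whether a gap seen in the lists of replicate 1 was also seen in those of replicate 2, patterns were assigned from each set of 4 lists separately over the 285853 merged peaks of all lists. The replicate 1 lists gave 13693 closed and reopened regions, of which 573 had the same pattern in replicate 2 (4.18%, 3.86 to 4.53). Of 43249 consecutive regions 37.7% (37.3 to 38.2) did. The replicate 2 lists gave 10171 closed and reopened regions, of which the same 573 are 5.63% (5.20 to 6.10), against 20.4% (20.1 to 20.6) of 80169 consecutive regions. Any of the 5 gap patterns was found in replicate 2 for 10.8% of the replicate 1 gaps and for 4.24% of the replicate 1 consecutive regions. From replicate 2 to replicate 1 these shares were 14.5% and 8.86%. With lists cut to equal length, 9.76% of the replicate 1 gaps and 34.5% of the consecutive patterns were found again in replicate 2. MES+CM was found again most often from replicate 2 to replicate 1 (10.1%) and ESC+CP least (4.26%). From replicate 1 to replicate 2 the order differed, with ESC+CP at 6.71% and MES+CM at 3.00%. The patterns differed in how often the lists gave them. Of the 285853 merged peaks, 5968 were ESC+CP and 922 MES+CM in replicate 2, and 3785 and 3103 in replicate 1.

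Read as a group, the regions chosen in replicate 2 had a dip in replicate 1 at the stages where they were closed. MES+CM regions of replicate 2 had a replicate 1 peak in 32.6% at MES, 19.2% (16.8 to 21.9) at CP and 46.7% at CM, where 39.6%, 34.4% and 29.6% of all merged peaks did. ESC+CP+CM regions had one in 29.7% at ESC, 19.4% at MES and 46.0% at CP. ESC+CM regions had one in 26.8% at ESC, 16.0% at MES, 15.8% at CP and 40.1% at CM. ESC+MES+CM regions had one in 57.5% at MES, 44.1% at CP and 50.4% at CM, and ESC+CP regions in 30.8% at ESC, 21.1% at MES and 28.7% at CP. In each of the 5 patterns, then, the share at the closed stages in between was below those of the open stages on both sides. Set against the shares of all merged peaks, the 5 patterns kept this dip. The closed stages in between stood lower against these shares than the open stages on both sides. Open stages were not always above the share of all merged peaks, and closed stages not always below it. The closed CP stage of ESC+MES+CM lay above the 34.4% of all merged peaks. At ESC, where 36.8% of all merged peaks were listed, the open stage lay below that share in ESC+CP, ESC+CM and ESC+CP+CM. The open CP stage of ESC+CP (28.7% against 34.4%) and the open MES stage of MES+CM (32.6% against 39.6%) lay below the share of all merged peaks as well.

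For the regions chosen in replicate 1, the shares listed in replicate 2 showed no such dip as they stand in any of the 5 patterns. They fell at each stage after the first open stage. ESC+CP regions had a replicate 2 peak in 81.4% at ESC, 64.8% at MES and 46.1% at CP. ESC+MES+CM regions had one in 90.1% at MES, 70.8% (69.1 to 72.5) at CP and 27.6% at CM, against 59.1%, 47.5% and 24.1% of all merged peaks. The closed stage was thus listed in replicate 2 more often than in the background. MES+CM regions went from 67.2% over 49.9% to 22.5%, and ESC+CM regions from 71.6% over 55.0% and 45.1% to 22.7%. In ESC+CP+CM the share was 84.4% at ESC, 76.1% at MES, 74.6% at CP and 34.2% at CM. Of all merged peaks, 56.4% were listed at ESC, 59.1% at MES and 47.5% at CP. Set against these shares, ESC+CP+CM regions did have a dip, since they exceeded them less at the closed MES than at the open ESC and CP. ESC+CP, MES+CM and ESC+MES+CM regions had none, and ESC+CM regions lay below all merged peaks at MES, CP and CM. The short CM replicate 2 list gave low shares at CM throughout, and its part in the missing returns was not tested.

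Closed and reopened regions were distal. Their midpoint lay within 1 kb of a protein-coding TSS in 384 (7.52%, 6.83 to 8.27), as in consecutive regions (7.37%, 7.13 to 7.62) and unlike regions open at all 4 stages (49.7%). Over all regions the share was 14.9%. It ranged from 6.51% in ESC+CP to 10.0% (8.21 to 12.2) in ESC+MES+CM. Of all closed and reopened regions, 40.5% were in introns, 33.4% intergenic, 12.6% in lncRNA genes, 3.33% at a lncRNA TSS and 2.70% in exons. The median distance to a TSS was 38719 bp, against 42614 bp in consecutive regions. The share near a TSS was 13.9% where replicates had to overlap by 50% of each peak, 14.0% with lists of equal length and 14.7% with the TSSs of all transcripts. The median GC content of the central 200 bp was 52.5% (quartiles 48 and 58), against 53% in consecutive regions, with 54% in ESC+CP, 50% in ESC+CM and 51% in MES+CM and in ESC+MES+CM. With patterns from the replicate 1 or the replicate 2 lists alone, it was 52.8% ± 0.354 (SD, n = 2).

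GATA letters were most frequent in MES+CM among the 5 patterns. They stood in 264 of 658 regions (40.1%, 36.4 to 43.9), against 26.0% of all regions, and the share was 33.8% ± 5.36 (SD, n = 2) with the lists of each replicate taken alone. In ESC+CP it was 18.6% (17.2 to 20.2), in ESC+MES+CM 23.3%, in ESC+CM 25.1% and in ESC+CP+CM 26.7%. Regions open at MES alone had GATA letters in 37.8% and at CM alone in 48.1%, so that MES+CM lay between the stages it joins. Consecutive patterns of these stages had as much or more, with 40.8% in MES+CP, 50.9% in CP+CM and 51.8% in MES+CP+CM. Over all closed and reopened regions the share was 23.7% (22.5 to 24.8), below the 27.1% (26.7 to 27.5) of consecutive regions. This order held among regions open at 2 stages, with 23.3% against 30.8%. Among regions open at 3 stages it turned, with 24.6% against 22.6%, where the intervals overlapped. The closed and reopened regions with no peak when closed had 27.4%.

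AP-1 letters were more frequent in the patterns that reopened at CM after a closed CP. They stood in 14.3% of ESC+MES+CM (12.1 to 16.7), 14.3% of MES+CM (11.8 to 17.2) and 11.6% of ESC+CM regions (9.09 to 14.8), against 5.75% of all regions. In ESC+CP+CM the share was 6.35% and in ESC+CP 4.20%. Regions open at CM alone had 8.54%, ESC+MES regions 8.31%, and MES+CP+CM regions, open through the CP stage, 7.32%. The size of the share moved with the lists. With the replicate 1 lists alone, it was 8.24% in ESC+MES+CM, 8.13% in MES+CM and 6.65% in ESC+CM, and with the replicate 2 lists alone 16.7%, 11.2% and 12.3%, where all regions had 5.38% and 5.66%.

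CTCF letters were found in 126 of 889 ESC+MES+CM regions (14.2%, 12.0 to 16.6), against 5.60% of all regions, 10.2% of ESC+MES+CP regions, 7.91% of ESC+MES regions and 3.80% of MES+CM regions. By replicate, the ESC+MES+CM share was 10.6% and 7.08%. Among all closed and reopened regions, CTCF letters stood in 8.85% (8.06 to 9.71) of those with a peak in a list when closed and in 4.44% (3.03 to 6.47) of those without. For AP-1 the order was the opposite, with 7.77% (7.03 to 8.58) and 11.5% (9.16 to 14.4).

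TEAD letters stood in 17.7% of closed and reopened regions (16.7 to 18.8), against 14.3% of consecutive regions, with the highest shares in ESC+CP+CM (22.7%) and ESC+CM (22.4%). Such shares were not limited to closed and reopened regions. Regions open at a single stage had 17.6% at hESC, 11.7% at MES, 15.6% at CP and 19.5% at CM. Consecutive patterns ranged from 12.2% in MES+CP to 19.4% in CP+CM. From the replicate 1 lists alone, the TEAD share of closed and reopened regions was 15.1%, against 14.3% of consecutive regions. From the replicate 2 lists alone it was 18.6% against 14.7%. By replicate, ESC+CP+CM had 17.3% and 23.1%, and ESC+CM 17.1% and 21.1%. NKX letters reached 15.7% and MEF2 letters 5.92% in ESC+CM, against 9.42% and 2.46% of all regions and 19.5% and 6.58% of regions open at CM alone. With the lists of replicate 1 and 2 alone, these ESC+CM shares were lower, at 10.6% and 12.2% for NKX and 3.48% and 4.56% for MEF2. Pooled over the patterns, octamer, forkhead and T-box letters were rarer than in consecutive regions. The octamer bound by OCT4 stood in 1.78% of closed and reopened and 3.20% of consecutive regions, although all but the MES+CM regions were open in hESC, where regions open at hESC alone had 5.77%. Consecutive patterns differed in this share, with 5.42% in ESC+MES, 2.62% in ESC+MES+CP and 1.09% in CP+CM. The closed and reopened ESC+CM and ESC+MES+CM regions had 2.65% and 2.81%, within that range. The forkhead letters TGTTTAC stood in 2.57% of closed and reopened and 4.78% of consecutive regions. The T-box letters AGGTGTNA stood in 3.09% against 4.46%, although in MES+CM they reached 5.17% (3.72 to 7.13). Among consecutive patterns, forkhead letters ranged from 3.07% in CP+CM to 7.73% in MES+CP. T-box letters ranged from 3.03% to 6.33% in the same patterns. Among regions open at 3 stages, forkhead letters stood in 2.41% against 4.56%. There the intervals overlapped for the octamer, with 2.06% (1.44 to 2.94) against 2.45% (2.24 to 2.67). They overlapped for T-box letters too, with 3.19% (2.40 to 4.25) against 3.74% (3.48 to 4.01). SOX letters stood in 8.28% (7.56 to 9.07) against 8.92% (8.65 to 9.19), with overlapping intervals.

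For each pattern, 4 regions are described next, with the fold in each library where the region was open. They had the highest −log10 q at their weakest peak, among regions with no peak in either list when closed. Fold can give another order, as CELF4 (lowest fold 4.09) ranked above ARRDC4 (5.52). The strongest ESC+CP region (chr13:42258798-42259133) was intergenic, 13187 bp upstream of AKAP11, which anchors protein kinase A. Its fold was 7.26 and 8.72 in hESC replicates 1 and 2 and 7.48 and 13.0 in CP, with no listed peak in MES or CM, and its weakest value was 2.33 times the fold needed at the closed stages. The next was in an intron of ELL2, a transcription elongation factor, with 5.85 and 6.76 in hESC and 6.30 and 6.97 in CP. A region 113 bp upstream of a TSS of LMO1, a LIM-domain cofactor of transcription, had 4.49 and 3.67 in hESC and 3.72 and 3.97 in CP. The remaining region lay 636197 bp from ADGRL3, an adhesion receptor, with 5.70 to 10.3.

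The strongest ESC+CM region lay in an intron of NBAS, which serves transport between Golgi and endoplasmic reticulum, and is the sequence with the NKX match. Its fold was 6.77 and 6.94 in hESC and 5.38 and 7.35 in CM. The next (chr2:178863822-178864242) lay in an intron of CCDC141, the gene beside titin, with 5.62 and 6.12 in hESC and 5.74 and 5.80 in CM. The 4 values were close to one another, and neither MES nor CP had a listed peak. Regions near ADRA1D, an adrenergic receptor, and in RERE, a nuclear corepressor, had folds of 4.63 to 7.63 and 4.63 to 7.60.

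The region with the highest ratio to the fold needed when closed, 2.36, was the strongest MES+CM region (chr6:55260146-55260653). It lay in an intron of HCRTR2, an orexin receptor, 67070 bp upstream of GFRAL, the receptor of GDF15. Its fold was 11.1 and 12.3 in MES and 8.08 and 7.07 in CM, and it is the sequence with the NKX and GATA matches. The others were 697 bp downstream of a TSS of CELF4, which regulates splicing (4.09 to 5.78), 361855 bp from ARRDC4 (5.52 to 6.38) and 92569 bp from ADGRF1 (4.37 to 6.77).

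The strongest ESC+MES+CM region was in an intron of PAG1, a membrane adaptor, with a fold of 9.68 and 8.01 in hESC, 6.10 and 7.49 in MES and 5.56 and 8.76 in CM. The next was 633 bp downstream of a TSS of ANXA3, a calcium-dependent phospholipid-binding protein, and is the sequence with the TEAD and AP-1 matches. Its fold was 5.89 and 4.74 in hESC, 4.83 and 5.25 in MES and 5.00 and 5.74 in CM, within a narrow range at all open stages. Regions near the histone gene H4C8 and in PCCA, a subunit of propionyl-CoA carboxylase, had 4.55 to 6.13 and 5.02 to 8.70.

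The strongest ESC+CP+CM region lay in a lncRNA gene, 189583 bp from SEC61B, a part of the protein translocon. Its hESC folds, 5.31 and 6.51, lay below all later values, which were 8.41 and 13.8 at CP and 9.23 and 11.8 at CM. In the TAFA2 intron hESC had 5.40 and 7.52 and the later stages 6.68 to 10.1, with CP replicate 1 (6.68) between the hESC values. Near AMY1C, at a distance of 488800 bp, hESC had 5.21 and 5.70 and the later stages 6.29 to 14.0, and in the CDK14 intron hESC had 4.33 and 4.06 and the later stages 4.56 to 10.1.

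Regions were also counted by the gene of the nearest protein-coding TSS, against the 3.69% of all regions that were closed and reopened. Of 921 regions nearest to 31 cardiac transcription factor genes, 56 (6.08%, 4.71 to 7.81) were closed and reopened. They were 17 ESC+CP, 15 ESC+MES+CM, 11 MES+CM, 9 ESC+CP+CM and 4 ESC+CM regions, and 7 had no peak when closed. ESC+MES+CM regions were 1.63% and MES+CM regions 1.19% of the regions at these genes, against 0.642% and 0.475% of all regions. A region 134784 bp from MEIS1, a homeodomain cofactor, was of the ESC+MES+CM pattern, with folds of 3.19 to 3.75 in all 6 libraries. In an intron of MEIS2 an ESC+CP+CM region had 4.75 and 5.25 in hESC, 4.84 and 10.6 in CP and 6.72 and 6.74 in CM. An ESC+MES+CM region 498438 bp from ISL1, a LIM-homeodomain factor of heart progenitors, had its highest values in hESC. They were 13.6 and 11.7, followed by 7.23 and 8.51 in MES and 5.38 and 4.80 in CM.

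At genes of calcium handling and ion channels, 26 of 547 regions (4.75%, 3.26 to 6.87) were closed and reopened, 14 of them ESC+CP. These included an intronic region 2670 bp downstream of a TSS of RYR2, the calcium release channel of the sarcoplasmic reticulum, with 4.84 and 6.59 in hESC and 5.34 and 3.72 in CP. An ESC+MES+CM region in CACNA2D1, a calcium channel subunit, had its highest values in CM, 8.08 and 6.46, against 3.85 to 5.20 before. At sarcomere genes there were 9 of 321 (2.80%, 1.49 to 5.24), among them an intronic ESC+CP+CM region of NEBL, a nebulin relative of heart Z-discs, with 3.39 and 4.98 in hESC, 4.91 and 7.26 in CP and 5.25 and 4.42 in CM. At genes of heart muscle metabolism there were 14 of 246 (5.69%, 3.42 to 9.32), 4 each of ESC+CP, ESC+CM and MES+CM. The MES+CM region near LPL, which releases fatty acids from lipoproteins, had 4.30 and 3.85 in MES and 3.62 and 3.99 in CM.

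At pluripotency genes 13 of 355 regions (3.66%, 2.15 to 6.16) were closed and reopened. They included 2 at ESRRB, an orphan nuclear receptor. The ESC+CP+CM region 369 bp upstream of its TSS had 4.00 and 3.33 in hESC, 3.23 and 5.69 in CP and 4.81 and 5.02 in CM, and the intronic ESC+CP region had 3.26 to 3.65 in all 4 libraries. Counts at the remaining lists were 8 of 286 (2.80%) for primitive streak and early mesoderm, 36 of 1025 (3.51%) for Wnt, BMP and FGF signalling, 12 of 238 (5.04%) for endothelium and blood, 4 of 182 (2.20%) for endoderm and 14 of 351 (3.99%) for neural ectoderm. Among the 10 lists, the interval left out 3.69% at cardiac transcription factors alone, and regions at the same gene are not independent of one another. At Wnt, BMP and FGF genes the region with the strongest weakest peak was an ESC+CP region 347232 bp from SPRY1, an inhibitor of FGF signalling, with 5.72 and 4.42 in hESC and 4.51 and 4.87 in CP. An intronic MES+CM region of TCF7L2, a transcription factor of the Wnt pathway, had 3.63 and 3.43 in MES and 3.50 and 5.94 in CM.

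The genes nearest to the most closed and reopened regions were NTM and TENM3 with 8 each, of 92 and 135 regions. They were followed by ADGRL2, ASTN2, FLRT2, MAT2B, MID1, PIK3C3 and ZFHX3 with 7 each and ADGRL3 with 6. These 10 genes had 42 to 135 regions each. Among them, the share was highest at MID1, an ubiquitin ligase of microtubules, with 7 of 42 regions (16.7%), followed by MAT2B (11.3%) and ZFHX3 (9.86%), a homeodomain and zinc finger factor, and lowest at ADGRL3 (4.84%). Shares were not ranked over all genes. Of the 8 regions at NTM and the 8 at TENM3 none was without a peak when closed, and at MAT2B, PIK3C3 and ADGRL3 2 regions each were.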

How the data were processed

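ATAC-seq peak lists of 8 RUES2 libraries were used, 2 for each of 4 stages. The authors mapped reads to hg38 with BWA-MEM (BWA 0.7.13 per the labels), kept primary alignments, used Picard to remove duplicates, and ran MACS2 2.1.0 on every library by itself at a q-value of 0.01, with reads shifted and extended so that pileups center on the insertion. The deposited lists give, for each peak, a display score, the fold of the summit over the local background (a ratio), −log10 of the p-value and q-value, and the summit position. They hold no read counts, so that the depth is not given directly, and a site missing from a list may be weak or poorly covered. Replicates were intersected with bedtools 2.31.1 (the authors used bedtools 2.26.0) and stage sets merged. Pileup and background were recovered from fold and −log10 p. The lowest background was higher in the longer list in hESC (4.62 against 3.13), MES (3.94 against 3.42) and CM (4.57 against 2.54). In CP it was lower in the longer list (3.30 against 3.68). How this background relates to depth was not tested. Midpoints were compared with GENCODE TSSs of protein-coding transcripts, and 200 bp windows of GRCh38 were searched for consensus letters on both strands, where the CATCTG letters are part of an E-box searched as well. The members and gene lists were chosen with earlier results of these data known. No test was run, since the rule uses both replicates of every stage. Regions were named by the −log10 q of the weakest peak when open, 4 per pattern, by counts for 10 genes, and up to 3 per gene list. Steps were tested on simulated data, where 100% of 20000 planted patterns were recovered. Samtools 1.23.1, scipy 1.17.1, pandas 2.3.3, numpy 2.4.6 and matplotlib 3.10.9 were run from Python 3.11.15. Alternatives were the union of replicates, whole replicate 1 peaks, 50% reciprocal overlap, lists of equal length, peaks with a −log10 q of 5 or more, coverage of at least 50% of a region, each library left out, other TSS distances and windows, and, chosen after the data were seen, the lists of each replicate alone.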

Additional observations from a re-analysis of the deposited data

How the results depend on the processing

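The number of closed and reopened regions was 5107. It was 18315 with the union of replicates, 563 without any peak when closed, and 13744 and 10189 with the lists of replicate 1 or of replicate 2 alone. With a library left out it ranged from 3718 to 11476, with the values beyond 1.5 times the count at 11476 without CM replicate 2, 9087 without hESC replicate 1 and 7811 without CP replicate 1. The share with no peak when closed (11.0%) was 100% by construction with the union and with the lists of replicate 1 or 2 alone. It was 6.85% with 50% reciprocal overlap, 16.3% with lists of equal length and 8.63% with coverage of at least 50% of the region. With a library left out it ranged from 13.7% to 45.6%, since a stage with a single list cannot have a peak in 1 of 2 lists. It exceeded 1.5 times the value without CP replicate 1 (21.3%), CP replicate 2 (28.5%), hESC replicate 1 (17.3%), MES replicate 1 (28.8%) and MES replicate 2 (45.6%).

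The share near a TSS (7.52%) was 4.35% with the union, 6.81% with whole replicate 1 peaks, 13.9% with 50% reciprocal overlap, 14.0% with lists of equal length, 9.33% with coverage of at least 50%, 6.04% without any peak when closed, 6.26% and 4.79% with the lists of replicate 1 and 2 alone, 5.46% within 500 bp, 9.81% within 2 kb, 14.7% with the TSSs of all transcripts, and 5.58% to 7.88% with a library left out. The median GC content (52.5%) was 53.5% with the union and with 50% reciprocal overlap, 54% with lists of equal length, 53% with coverage of at least 50% and with the replicate 1 lists, 51.5% without any peak when closed, and 51.5% to 53.5% with a library left out. The share with GATA letters (23.7%) was 22.4% with the union and with 50% reciprocal overlap, 20.8% with lists of equal length, 27.4% without any peak when closed, 24.9% with the replicate 2 lists, 12.7% in 100 bp, 43.8% in 400 bp, and 21.6% to 30.2% with a library left out. The share of replicate 1 patterns found again in replicate 2 (4.18%) was 9.76% with lists of equal length. Apart from the constructions named, the cause of these changes was not tested. A −log10 q of at least 5 left all 6 values within their limits, which were 1.5 times for counts, the 95% interval for shares and the SD between replicates for GC content. No paired analysis was possible because no result comes from a test.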

Other observations

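Over the chromosomes, the share of regions that were closed and reopened ranged from 3.07% to 4.77%. It was lowest on chromosome 19 (3.07%, 2.58 to 3.67) and on X (3.14%, 2.69 to 3.67) and highest on chromosome 21 (4.77%, 3.74 to 6.07). The intervals of these chromosomes left out the 3.69% of all regions. So did those of chromosomes 15 (4.37%, 3.78 to 5.05) and 16 (4.36%, 3.76 to 5.04). The letters CAGCNGG, searched for ZIC factors, stood in 26.9% of closed and reopened regions against 30.0% of consecutive regions, and the CCAAT letters of NF-Y in 20.1% against 21.0%. Among ESC+CP+CM regions, the letters TGACAG, searched for MEIS factors, stood in 21.0% (17.7 to 24.7), against 15.6% of all regions, 24.7% of MES+CP+CM and 35.6% of CP+CM regions, and 30.6% of regions open at CM alone.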
